A study of Homo sapiens with 24 samples.

Results

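The intermediate filament genes NEFL, NEFM, NEFH, INA, NES, VIM, PRPH and GFAP were followed in HEK293T cells after knockdown or overexpression of FMR4, a long non-coding RNA transcribed antisense to FMR1, the gene silenced in fragile X syndrome. The 8 genes were taken as the probe sets carrying a member's name as their single gene symbol, and each of them had 1 such probe set, so that no measured value decided which probe set stood for a gene, although genes with several would have been represented by the probe set selected on the highest mean. The set of 8 was chosen by gene family, with earlier results of these data known. They are 8 of the 18395 genes with a single-symbol probe set on the array. HEK293T is an established line derived from embryonic kidney. Cells received an siRNA against FMR4 (FMR4 siRNA) or a scrambled control siRNA (CTRL siRNA), each at 40 nM with the transfection reagent Lipofectamine RNAiMAX. Other cells received 0.5 µg of the expression plasmid pcDNA3.1 carrying FMR4 (FMR4 pcDNA3.1) or the empty plasmid (CTRL pcDNA3.1) with Lipofectamine 2000CD. RNA was taken 6 or 24 h after transfection. This gave 8 conditions with 3 arrays each, 24 arrays in all, labelled with replicate numbers 1 to 3.

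Intermediate filaments are rope-like cytoskeletal polymers that give cells mechanical strength. NEFL, NEFM, NEFH and INA (alpha-internexin) encode the subunits that co-assemble into neurofilaments, which fill axons and set their calibre. NES encodes nestin, found in neural precursor cells. VIM, PRPH and GFAP encode vimentin of mesenchymal cells, peripherin of peripheral neurons and the glial fibrillary acidic protein of astrocytes, which form another class of these filaments. HEK293T cells are known to express neurofilament subunits and vimentin although they are not neurons.

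Expression is given as the log2 value of a probe set. Probe sets differ in brightness for reasons other than transcript number, so changes are read within a gene across conditions. Levels are set beside other probe sets only as a rough guide to which genes lay above silent ones. A value is taken over all cells of a sample, and fewer cells expressing a gene and less RNA per cell cannot be told apart. Of the array-wide properties, the 24 arrays had medians between 7.43 and 7.53 over all probe sets, and an array correlated on average at 0.989 to 0.996 with the other 23. FMR4 siRNA replicate 3 at 6 h had the lowest of these correlations, followed by CTRL siRNA replicate 3 at 6 h at 0.993. No probe set of the table carried the symbol FMR4, so the extent of knockdown and overexpression was not read from these arrays. Of the cell type markers measured, 5 of 8 embryonic kidney, 5 of 8 neural precursor, 7 of 12 mesenchymal, 4 of 14 neuron, 2 of 7 astrocyte and Schwann cell, 1 of 7 blood and endothelial and 0 of 5 epithelial markers lay above the level described next for silent genes. The embryonic kidney list was thus not set apart from the neural precursor and mesenchymal lists. Those above in the kidney list were EYA1, SIX2, WT1, SALL1 and GATA3, and those in the neuron list were MAPT, UCHL1, ISL1 and GAD1. No marker of the neuron, neural precursor, astrocyte, epithelial, kidney or blood lists passed the test between FMR4 siRNA and CTRL siRNA at 24 h.

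NEFL, NEFM, INA and VIM were bright, and NEFH, NES, PRPH and GFAP were dim. As a yardstick for genes that HEK293T cells do not use, 433 olfactory receptor and keratin-associated protein probe sets had a median of 5.31 and a 95th percentile of 7.71. NEFL, NEFM, INA and VIM lay above all 433 of them. NEFH, NES, PRPH and GFAP lay within the upper part of their range: averaged over the 24 arrays, NEFH was above 86.8%, NES above 91.5%, GFAP above 93.8% and PRPH above 94.5% of them. The signal of these 4 genes could not be told apart from that of silent genes. Their condition means ranged from 6.55 to 6.80 for NEFH, 6.99 to 7.13 for NES, 7.59 to 7.71 for PRPH and 7.26 to 7.44 for GFAP, and the arrays of every pair of neighbouring conditions in each gene's order overlapped.

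NEFM, the medium neurofilament subunit, varied most between conditions among the 8 genes, with condition means that spanned 1.43 log2 units. At 24 h its 3 arrays read 10.21, 10.23 and 9.99 with FMR4 siRNA, against 9.49, 9.26 and 9.39 with CTRL siRNA. All FMR4 siRNA arrays were above all CTRL siRNA arrays. The plasmid arrays at 24 h read 10.09, 10.11 and 9.78 with FMR4 pcDNA3.1, against 10.13, 10.07 and 9.94 with CTRL pcDNA3.1. Both plasmid groups thus overlapped with the FMR4 siRNA arrays, and the 3 CTRL siRNA arrays were the lowest of the 12 arrays at 24 h. At 6 h NEFM read 10.52, 10.36 and 10.30 with FMR4 siRNA, against 10.70, 10.27 and 10.10 with CTRL siRNA. It read 10.94, 10.70 and 10.76 with FMR4 pcDNA3.1 at 6 h, against 10.93, 10.91 and 10.57 with CTRL pcDNA3.1. At 6 h neither pair could be separated. In the order of the 8 condition means, CTRL pcDNA3.1, FMR4 pcDNA3.1, FMR4 siRNA and CTRL siRNA at 6 h came first (10.80, 10.80, 10.39 and 10.36), followed by FMR4 siRNA, CTRL pcDNA3.1, FMR4 pcDNA3.1 and CTRL siRNA at 24 h (10.14, 10.05, 9.99 and 9.38). Of the 7 pairs of neighbours in this order 5 overlapped. The exceptions were FMR4 pcDNA3.1 over FMR4 siRNA at 6 h and FMR4 pcDNA3.1 over CTRL siRNA at 24 h.

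**Figure D1:**
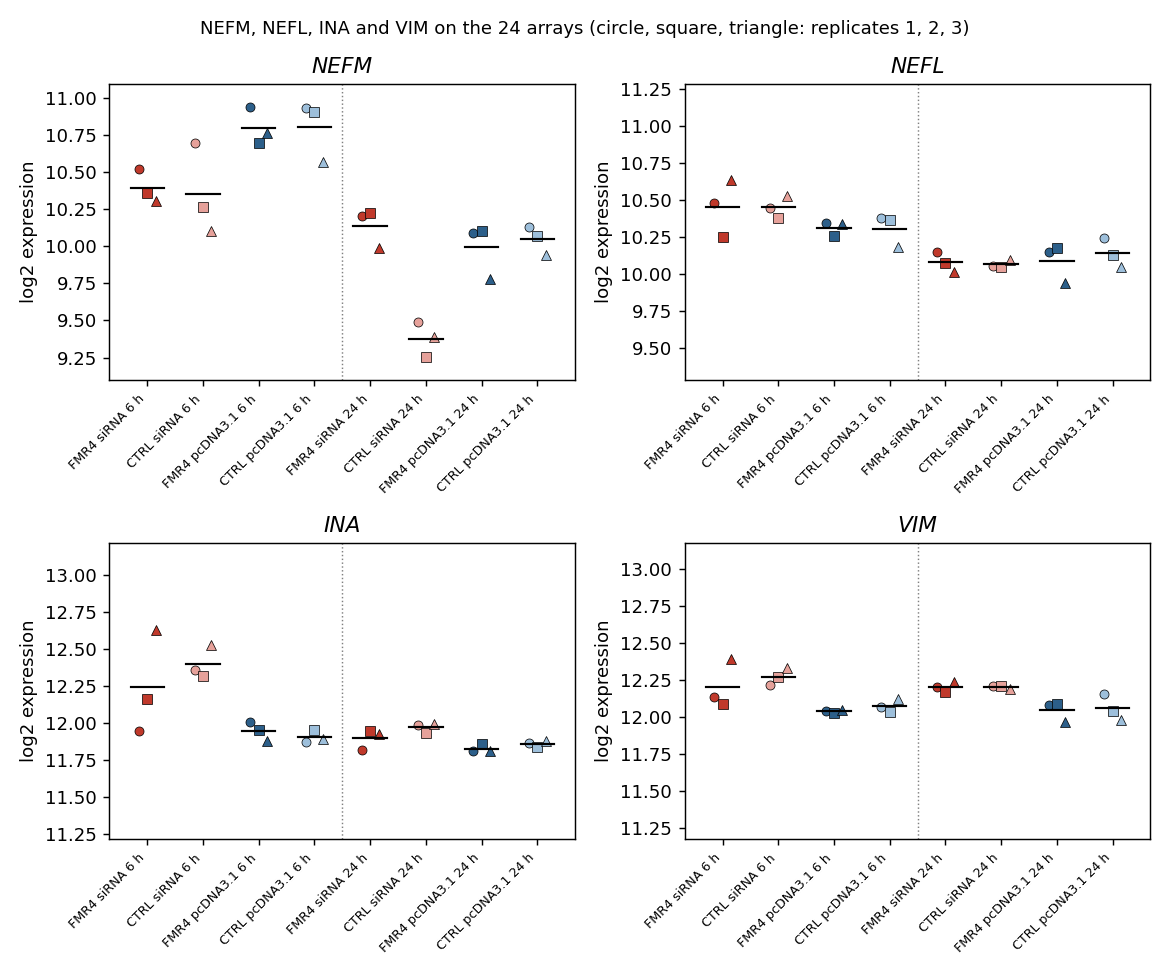
Log2 expression of NEFM, NEFL, INA and VIM on each of the 24 arrays, by condition, with 6 h left of the dotted line and 24 h right of it; symbols are single arrays, horizontal bars are means of 3, and every panel spans the same number of log2 units. The CTRL siRNA arrays at 24 h are the low group for NEFM, between 9.26 and 9.49, and for INA 5 of the 6 siRNA arrays at 6 h, all but FMR4 siRNA replicate 1, are the highest.

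NEFL, the light subunit, is the core on which neurofilaments assemble, and it is the nearest protein-coding neighbour of NEFM on chromosome 8. At 24 h it read 10.15, 10.08 and 10.01 with FMR4 siRNA, against 10.05, 10.05 and 10.10 with CTRL siRNA. With the plasmids it read 10.15, 10.17 and 9.94 with FMR4 pcDNA3.1 at 24 h, against 10.24, 10.13 and 10.05 with CTRL pcDNA3.1. All 4 groups overlapped. At 6 h NEFL read 10.48, 10.25 and 10.63 with FMR4 siRNA, against 10.45, 10.38 and 10.52 with CTRL siRNA. At that time it read 10.35, 10.26 and 10.34 with FMR4 pcDNA3.1, against 10.38, 10.36 and 10.18 with CTRL pcDNA3.1. The 6 h means (10.31 to 10.45) were all above the 24 h means (10.07 to 10.14), and 6 of the 7 neighbouring pairs overlapped.

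INA, a subunit that joins the other 3 in central neurons, was highest in the siRNA groups at 6 h. Its arrays read 11.94, 12.16 and 12.62 with FMR4 siRNA at 6 h, against 12.36, 12.31 and 12.52 with CTRL siRNA. They read 12.003, 11.95 and 11.88 with FMR4 pcDNA3.1 at 6 h, against 11.87, 11.95 and 11.89 with CTRL pcDNA3.1. The FMR4 siRNA arrays at 6 h were the most scattered of all the member groups, with an SD of 0.35 over 3 arrays. At 24 h all 12 arrays lay between 11.81 and 11.99, and every pair of neighbouring conditions over both times overlapped. Conditions further apart in the order could be separate. At 24 h the CTRL siRNA arrays (11.93 to 11.99) were all above the CTRL pcDNA3.1 arrays (11.84 to 11.87), a difference that was not called (limma adjusted p = 0.664).

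VIM, encoding vimentin, moved least among the bright genes, with means between 12.04 and 12.27. At 6 h it read 12.14, 12.09 and 12.39 with FMR4 siRNA, against 12.21, 12.27 and 12.33 with CTRL siRNA. The plasmid arrays of that time read 12.04, 12.03 and 12.05 with FMR4 pcDNA3.1, against 12.07, 12.04 and 12.13 with CTRL pcDNA3.1. At 24 h VIM read 12.20, 12.17 and 12.24 with FMR4 siRNA, against 12.21, 12.21 and 12.19 with CTRL siRNA. It read 12.08, 12.09 and 11.97 with FMR4 pcDNA3.1 at 24 h, against 12.16, 12.04 and 11.98 with CTRL pcDNA3.1. The 6 siRNA arrays at 24 h were all above the 6 plasmid arrays at that time. In comparisons added after the values were seen, the difference did not pass the adjusted test in either siRNA group. FMR4 siRNA minus both plasmid groups gave 0.15 (limma unadjusted p = 0.0161, adjusted p = 0.0977). CTRL siRNA minus both plasmid groups gave 0.15 (limma unadjusted p = 0.0152, adjusted p = 0.129).

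INA and VIM lie on the same chromosome. The start regions of both are printed because INA stood out at 6 h and VIM moved least among the bright genes. VIM still varied along with INA, with a Pearson correlation of 0.76 over the 8 condition means. The windows are therefore not those of a changing and an unchanging gene. The sequences are RefSeq's, 250 bases before to 50 bases after each gene's start on assembly GRCh38.p14, with INA at chr10:103276888-103277187 and VIM at chr10:17227991-17228290, both on the plus strand. Capitals mark the GC box GGGCGG, the motif of SP1-type factors, read on either strand.
INA: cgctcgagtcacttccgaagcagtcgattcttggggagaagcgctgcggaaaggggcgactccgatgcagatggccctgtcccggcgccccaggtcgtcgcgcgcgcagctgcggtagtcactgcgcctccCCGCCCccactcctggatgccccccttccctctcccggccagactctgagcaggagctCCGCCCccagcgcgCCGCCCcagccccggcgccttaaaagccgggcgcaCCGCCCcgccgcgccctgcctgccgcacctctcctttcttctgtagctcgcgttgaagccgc
VIM: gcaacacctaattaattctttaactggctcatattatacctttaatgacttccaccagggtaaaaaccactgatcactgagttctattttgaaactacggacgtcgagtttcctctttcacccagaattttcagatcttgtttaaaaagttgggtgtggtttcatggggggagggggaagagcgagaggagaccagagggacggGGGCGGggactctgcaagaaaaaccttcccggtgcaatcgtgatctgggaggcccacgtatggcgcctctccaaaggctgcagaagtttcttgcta

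The INA window held 71.3% G and C, 35 CpG dinucleotides and 4 GC boxes, against 48% G and C, 10 CpG dinucleotides and 1 GC box for VIM. At least 1 GC box was found in 45% of all 35116 promoter windows of this length. Of the 8 genes, 4 had a window in the reference table: NES also had 4 GC boxes, and PRPH had none but held the TATA box TATAAA, which 7.33% of all windows did. The CCAAT box (CCAAT, in 34.6% of windows) and the cyclic AMP response element (TGACGTCA, in 1.85%) were in none of the 4. A match of letters is a description of the window only, and the motifs do not overlap one another. Other start sites of these genes were not examined, so the counts do not describe a gene's promoters as a whole.

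The first question was which of the 8 genes differed with FMR4 knockdown. The comparison used limma, a linear model, fitted to the 24 arrays together with a mean for each condition, and a gene was called where its p, adjusted by Benjamini-Hochberg over all 21214 probe sets with a gene, was under 0.05. At 24 h, NEFM was called and the other 7 genes were not. NEFM averaged 10.14 ± 0.13 with FMR4 siRNA and 9.38 ± 0.12 with CTRL siRNA (SD, n = 3 each). The difference was 0.76 (SE 0.13, 95% CI 0.50 to 1.02), or 1.70-fold, with limma adjusted p = 0.000385. The other 7 differences lay between -0.08 (INA) and 0.03 (NEFH), and their lowest adjusted p was 0.819. This 1 call of 8 stands beside 5.89% of all 18395 genes called in either direction and 3.44% called higher, and the median over the 8 genes was 0.01, against 0.004 over all genes. The NEFM call was kept in each of the 12 other settings and in each of the 6 fits that left out 1 of the arrays compared, where its difference was 0.70 to 0.84.

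NEFM was also set against its neighbour on the chromosome. Within an array, the NEFM value minus the NEFL value averaged 0.06 ± 0.09 with FMR4 siRNA at 24 h, against -0.69 ± 0.12 with CTRL siRNA (SD, n = 3 each). Only the change of this value between groups has a meaning, since its level depends on both probe sets. The groups did not overlap, with a difference of 0.75 and a two-sided exact permutation p = 0.1, the smallest that 3 arrays against 3 allow. NEFL differed by 0.01 there, so this largely restates the NEFM difference. Between CTRL pcDNA3.1 and CTRL siRNA the value differed by 0.60 at 24 h and 0.59 at 6 h, each with exact permutation p = 0.1. Between FMR4 siRNA and CTRL siRNA at 6 h it differed by 0.03 (exact permutation p = 0.9). The same value was -0.09 ± 0.05 with FMR4 pcDNA3.1, against -0.09 ± 0.03 with CTRL pcDNA3.1 at 24 h (exact permutation p = 1).

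At 6 h, FMR4 siRNA against CTRL siRNA gave 0 calls of 8 by limma and also 0 at an unadjusted p under 0.05, beside 0.0598% of all genes called and 718 of them at that unadjusted level. The differences ran from -0.16 for INA to 0.14 for GFAP. The GFAP arrays did not overlap (7.36 to 7.45 with FMR4 siRNA, 7.20 to 7.32 with CTRL siRNA, limma unadjusted p = 0.0556), at a level within the range of silent genes. The INA value turned on 2 FMR4 siRNA arrays in opposite ways. Without replicate 3 it was -0.35 with limma adjusted p = 0.00505, and without replicate 1 it was -0.0073 and not called. Without the replicate 3 arrays of both siRNA groups, which correlated least with the rest, it was -0.28 (adjusted p = 0.0356).

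With FMR4 overexpression, none of the 8 genes was called by limma at 6 or 24 h, and none had an unadjusted p under 0.05 at either time. The background was 0% of all genes called at both times, with 372 genes at an unadjusted p under 0.05 at 6 h and 602 at 24 h. Differences ran from -0.05 to 0.07 at 6 h and from -0.10 (NEFH) to 0.09 (GFAP) at 24 h. NEFM differed by -0.003 at 6 h (95% CI -0.27 to 0.26) and by -0.05 at 24 h (95% CI -0.32 to 0.21).

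**Figure D2:**
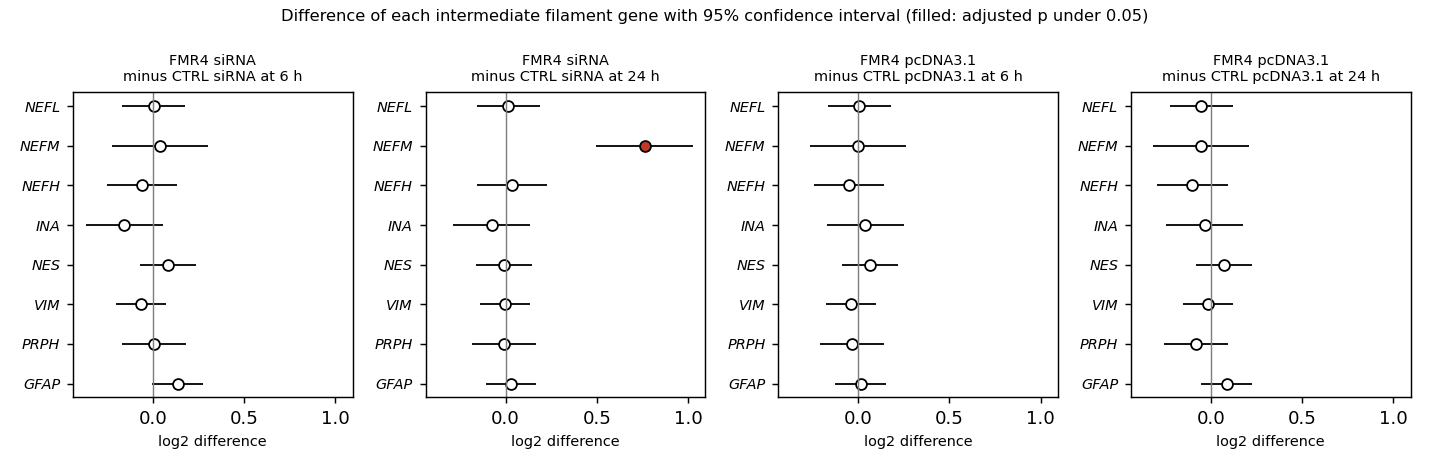
Log2 difference of each of the 8 genes between the FMR4 treatment and its control, for knockdown and overexpression at 6 and 24 h; horizontal lines are 95% confidence intervals and filled points have an adjusted p under 0.05. NEFM after knockdown at 24 h, at 0.76, is the single filled point.

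The differences between these effects were tested too. The NEFM knockdown effect at 24 h exceeded that at 6 h by 0.72 (SE 0.18, limma adjusted p = 0.0486), 1 call of 8 beside 0.718% of all genes called in that direction. It was no longer called when any of 8 of the 12 arrays was left out: replicates 1, 2 or 3 of CTRL siRNA at 24 h (adjusted p = 0.0574, 0.152 and 0.0981), replicates 1 or 2 of FMR4 siRNA at 24 h (0.109 and 0.126), replicates 1 or 2 of CTRL siRNA at 6 h (0.145 and 0.0658) or replicate 2 of FMR4 siRNA at 6 h (0.11). The NEFM knockdown effect exceeded the overexpression effect at 24 h by 0.81 (SE 0.18, limma adjusted p = 0.0137), 1 call of 8 beside 1.41% of all genes. Here the adjusted p was 0.0529 without CTRL siRNA replicate 2 and 0.0581 without FMR4 pcDNA3.1 replicate 3 at 24 h. At 6 h the corresponding NEFM difference was 0.04 and no gene of the 8 was called by limma or had an unadjusted p under 0.05, beside 0% of all genes called. The same held for the difference of the overexpression effects between the times, again beside 0% of all genes.

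The second question was how the 2 control treatments compared, since NEFM was low in the CTRL siRNA arrays and not in the plasmid arrays. At 24 h, NEFM averaged 10.05 ± 0.10 with CTRL pcDNA3.1 and 9.38 ± 0.12 with CTRL siRNA (SD, n = 3 each). The difference of 0.67 (SE 0.13, limma adjusted p = 0.00264) was 1 call of 8, beside 2.9% of all genes called higher. In comparisons added after the values were seen, CTRL siRNA minus both plasmid groups gave -0.64 for NEFM at 24 h (adjusted p = 0.000647, the only call of 8, beside 3.87% of all genes called lower). FMR4 siRNA minus both plasmid groups gave 0.12 (95% CI -0.11 to 0.35, adjusted p = 0.563), and none of the 8 was called, with 1 (VIM) at an unadjusted p under 0.05, beside 12.4% of all genes called. The FMR4 effect and the control comparisons share the CTRL siRNA arrays, and the siRNA and plasmid arms differed in reagent as well as in nucleic acid, so these cannot be told apart.

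At 6 h, INA averaged 11.90 ± 0.04 with CTRL pcDNA3.1 and 12.40 ± 0.11 with CTRL siRNA (SD, n = 3 each). It was 0.50 lower with the empty plasmid (SE 0.10, limma adjusted p = 0.0183), 1 call of 8 beside 1.7% of all genes called lower. NEFM differed the other way by 0.45 (adjusted p = 0.0526) and VIM by -0.19 (adjusted p = 0.0904), and neither was called. The NEFM difference was called in 6 of the 11 other settings, with a lowest adjusted p of 0.0185. It was also called without CTRL siRNA replicate 1 (0.62, adjusted p = 0.0278). The INA call was lost without replicate 1 or 3 of CTRL pcDNA3.1 (adjusted p = 0.0718 and 0.0977) or replicate 1 or 3 of CTRL siRNA (0.0523 and 0.115).

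In lists of 128 measured genes that act with these filaments or mark cell types, 3 were called lower and 1 higher with CTRL pcDNA3.1 than with CTRL siRNA at 6 h, 3.12% beside 3.31% of all genes. The higher gene was JUN, a subunit of the AP-1 transcription factor (0.39, limma adjusted p = 0.0183). The lower genes were HSPB8, KRT8 and EPPK1, and these 4 were named after their values were seen. HSPB8, a small heat shock protein that works with BAG3 in protein quality control, read 6.80, 9.41 and 10.55 in FMR4 siRNA replicates 1, 2 and 3, against 8.89, 9.88 and 10.46 in CTRL siRNA replicates 1, 2 and 3. All 6 plasmid arrays at 6 h lay between 6.94 and 7.44. FMR4 siRNA replicate 1 was thus below all plasmid arrays for HSPB8, and it lay among them for INA (11.94). KRT8, a keratin of simple epithelia, read 8.38, 8.88 and 9.72 with FMR4 siRNA, against 8.997, 9.07 and 9.58 with CTRL siRNA, and 8.43 to 8.54 on the plasmid arrays. Between CTRL pcDNA3.1 and CTRL siRNA at 6 h, HSPB8 differed by -2.54 (limma adjusted p = 0.0194), KRT8 by -0.75 (adjusted p = 0.0389) and EPPK1, a plakin that binds keratins, by -0.61 (adjusted p = 0.0454). The part of this array-to-array variation in the INA difference was not tested.

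**Figure D3:**
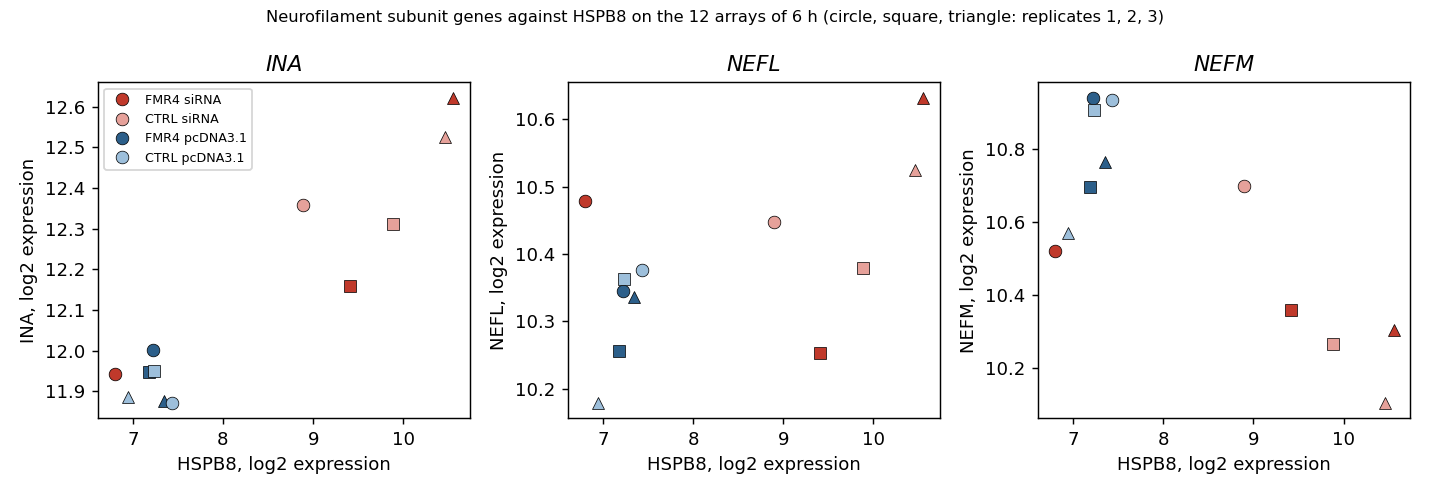
Log2 expression of INA, NEFL and NEFM (vertical axes) against HSPB8 (horizontal axis) on the 12 arrays at 6 h; each point is 1 array, with colour for the treatment and symbol for the replicate number. The 5 siRNA arrays with HSPB8 above 8.8 have the 5 highest INA values, and FMR4 siRNA replicate 1 lies among the plasmid arrays for INA and below all of them for HSPB8. INA and HSPB8 were each called by limma between the control treatments at 6 h, and HSPB8 was named after its values were seen. High values of both on siRNA arrays thus follow in part from that choice.

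The third question was how the genes changed between 6 and 24 h within each treatment. NEFM fell by 0.98 with CTRL siRNA (SE 0.13, limma adjusted p = 3.56e-05), by 0.81 with FMR4 pcDNA3.1 (adjusted p = 0.0006) and by 0.76 with CTRL pcDNA3.1 (adjusted p = 0.000965). With FMR4 siRNA the NEFM difference was -0.25 (95% CI -0.52 to 0.01, adjusted p = 0.186), although its 24 h arrays were all below its 6 h arrays. The difference between the time changes with FMR4 siRNA and CTRL siRNA is the same 0.72 as tested above.

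NEFL fell by 0.37 with FMR4 siRNA (SE 0.08, limma adjusted p = 0.00364) and by 0.38 with CTRL siRNA (adjusted p = 0.00291). With array weights the FMR4 siRNA difference of NEFL was -0.21 and not called (adjusted p = 0.0753), nor was it called when those 6 arrays were fitted alone (0.137). In the plasmid groups NEFL differed by -0.23 with FMR4 pcDNA3.1 (adjusted p = 0.116) and by -0.17 with CTRL pcDNA3.1 (adjusted p = 0.262). INA fell by 0.35 with FMR4 siRNA (SE 0.10, adjusted p = 0.0228) and by 0.43 with CTRL siRNA (adjusted p = 0.00566). Its differences in the plasmid groups were -0.12 and -0.04, with FMR4 pcDNA3.1 and CTRL pcDNA3.1 in that order, and neither was called. The INA fall with FMR4 siRNA was -0.16 without replicate 3 of 6 h (adjusted p = 0.139) and -0.31 without replicate 1 of 24 h (adjusted p = 0.0852).

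Counted over the 8 genes, 2 were lower at 24 h with FMR4 siRNA, 3 with CTRL siRNA, 1 with FMR4 pcDNA3.1 and 1 with CTRL pcDNA3.1, and none was higher. Over all genes, 4.38%, 8.76%, 3.03% and 1.93% were called lower in these 4 treatments. VIM, NES, NEFH, PRPH and GFAP were called in none of them. Whether the change over time differed between the 2 control treatments was tested in a comparison added after the values were seen, and no gene of the 8 was called by limma: INA gave -0.38 (CTRL siRNA minus CTRL pcDNA3.1, adjusted p = 0.182), NEFM -0.22 (adjusted p = 0.554) and NEFL -0.22 (adjusted p = 0.363). INA had an unadjusted p under 0.05, the others did not, and 1.12% of all genes were called.

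**Figure D4:**
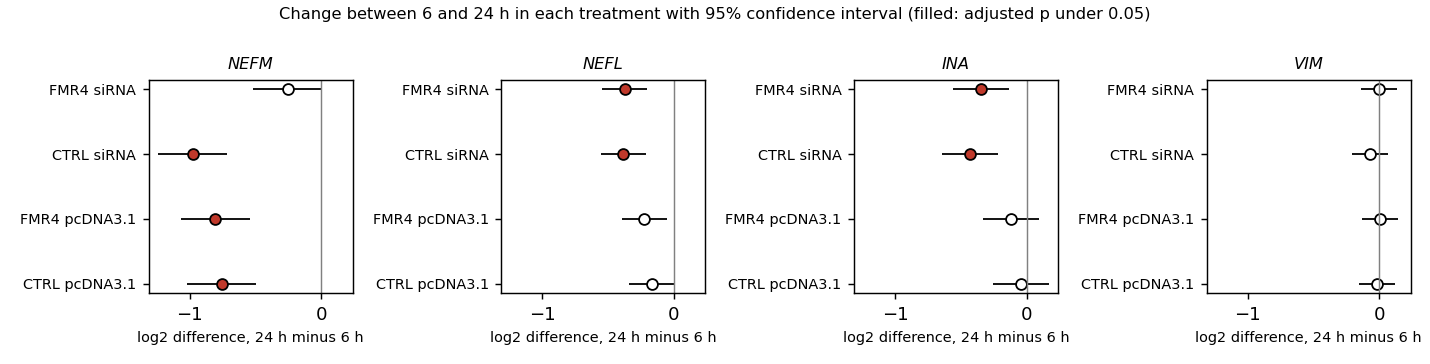
Log2 difference between 24 and 6 h (24 h minus 6 h) of NEFM, NEFL, INA and VIM in each of the 4 treatments; horizontal lines are 95% confidence intervals and filled points have an adjusted p under 0.05. NEFM lies at -0.76 or below in 3 treatments and at -0.25 with FMR4 siRNA, and VIM lies within 0.07 of 0 in all 4.

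Beyond the 8 genes, lists of genes that build, anchor, modify, carry or regulate intermediate filaments, together with the cell type markers, held 139 genes, of which 128 were measured. Between FMR4 siRNA and CTRL siRNA at 24 h, 7 were called higher and 1 lower, 6.25% of those measured, beside 5.89% of all genes. None of the keratins of simple epithelia (0 of 7) and none of the other type III, type IV and lens filaments (0 of 4) was called at 24 h, with lowest adjusted p of 0.742 and 0.703. Among the 3 lamins, which line the nucleus, LMNB2 was called (0.20, limma adjusted p = 0.0248). LMNB2 averaged 10.90 with FMR4 siRNA and 10.70 with CTRL siRNA at 24 h. Its plasmid means were 10.91 with FMR4 pcDNA3.1 and 10.93 with CTRL pcDNA3.1, so CTRL siRNA was the low group.

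Of the linkers, 1 of 9 was called: DSP, desmoplakin, which ties intermediate filaments to cell junctions. DSP read 10.55, 10.62 and 10.51 with FMR4 siRNA at 24 h, against 10.09, 9.94 and 9.95 with CTRL siRNA. The plasmid arrays read 10.50, 10.49 and 10.48 with FMR4 pcDNA3.1, against 10.60, 10.64 and 10.46 with CTRL pcDNA3.1. As for NEFM, the CTRL siRNA arrays were the low group, and the FMR4 siRNA arrays lay among the plasmid arrays. The difference was 0.57 (SE 0.06, limma adjusted p = 1.26e-06).

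Of 14 measured kinases and phosphatases that act on these filaments, 1 was called, MAPK3, the kinase ERK1. It read 11.37, 11.46 and 11.56 with FMR4 siRNA at 24 h, against 11.04, 10.98 and 10.94 with CTRL siRNA, and the 6 plasmid arrays lay between 11.41 and 11.50. The difference was 0.48 (SE 0.06, limma adjusted p = 1.25e-05). Both DSP and MAPK3 were also higher with CTRL pcDNA3.1 than with CTRL siRNA at 24 h, by 0.58 (adjusted p = 3.05e-06) and 0.46 (adjusted p = 5.65e-05). Their knockdown effects at 24 h exceeded those at 6 h, by 0.58 for DSP (adjusted p = 0.000646) and 0.40 for MAPK3 (adjusted p = 0.017).

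Among 9 transport motor genes, KIF5C, a kinesin heavy chain of neurons, was called (0.36, limma adjusted p = 0.00558). It read 9.01, 9.12 and 8.86 with FMR4 siRNA at 24 h, against 8.79, 8.44 and 8.68 with CTRL siRNA. Unlike DSP, KIF5C did not differ by the test between CTRL pcDNA3.1 and CTRL siRNA (0.10, adjusted p = 0.604). Of 11 regulators of the neurofilament, nestin and vimentin genes, REST and STAT3 were called. REST, a repressor of neuronal genes, read 10.18, 10.24 and 10.04 with FMR4 siRNA at 24 h, against 9.92, 9.71 and 9.86 with CTRL siRNA, which made REST 0.32 higher (SE 0.07, adjusted p = 0.00288). STAT3, a transcription factor downstream of cytokine receptors, differed by 0.29 (adjusted p = 0.00874).

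ZEB1, a transcription factor of mesenchymal cells, was the 1 called of 12 mesenchymal markers (0.24, limma adjusted p = 0.0478). CASP6, a protease that cleaves lamins and other filament proteins, was the 1 called of 10 turnover genes and chaperones (-0.27, adjusted p = 0.0468). For KIF5C, REST, STAT3, ZEB1 and CASP6 the means of both plasmid groups at 24 h lay between those of the siRNA groups. DSP, MAPK3 and REST kept their calls with each array left out in turn. KIF5C lost its call when the second array of either group was left out (adjusted p = 0.0623 for CTRL siRNA and 0.0506 for FMR4 siRNA). The STAT3 call needed the third CTRL siRNA array (0.0607 in its absence) and the second FMR4 siRNA array (0.0833). For LMNB2 the arrays needed were CTRL siRNA 2 and 3 (0.0701 and 0.15) and FMR4 siRNA 2 (0.173). For ZEB1 they were CTRL siRNA 1 and 2 (0.0821 and 0.357) and FMR4 siRNA 2 and 3 (0.224 and 0.0993). For CASP6 they were all 3 CTRL siRNA arrays (0.126, 0.155 and 0.0892) and FMR4 siRNA 2 and 3 (0.109 and 0.19). With only these 6 arrays fitted, the calls of KIF5C (adjusted p = 0.0735), STAT3 (0.0777), LMNB2 (0.185), ZEB1 (0.187) and CASP6 (0.0667) were lost. In a fit to the 12 arrays at 24 h those of LMNB2 (0.0638), ZEB1 (0.0692) and CASP6 (0.0745) were lost, and with array weights those of ZEB1 (0.0907) and CASP6 (0.0531).

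**Figure D5:**
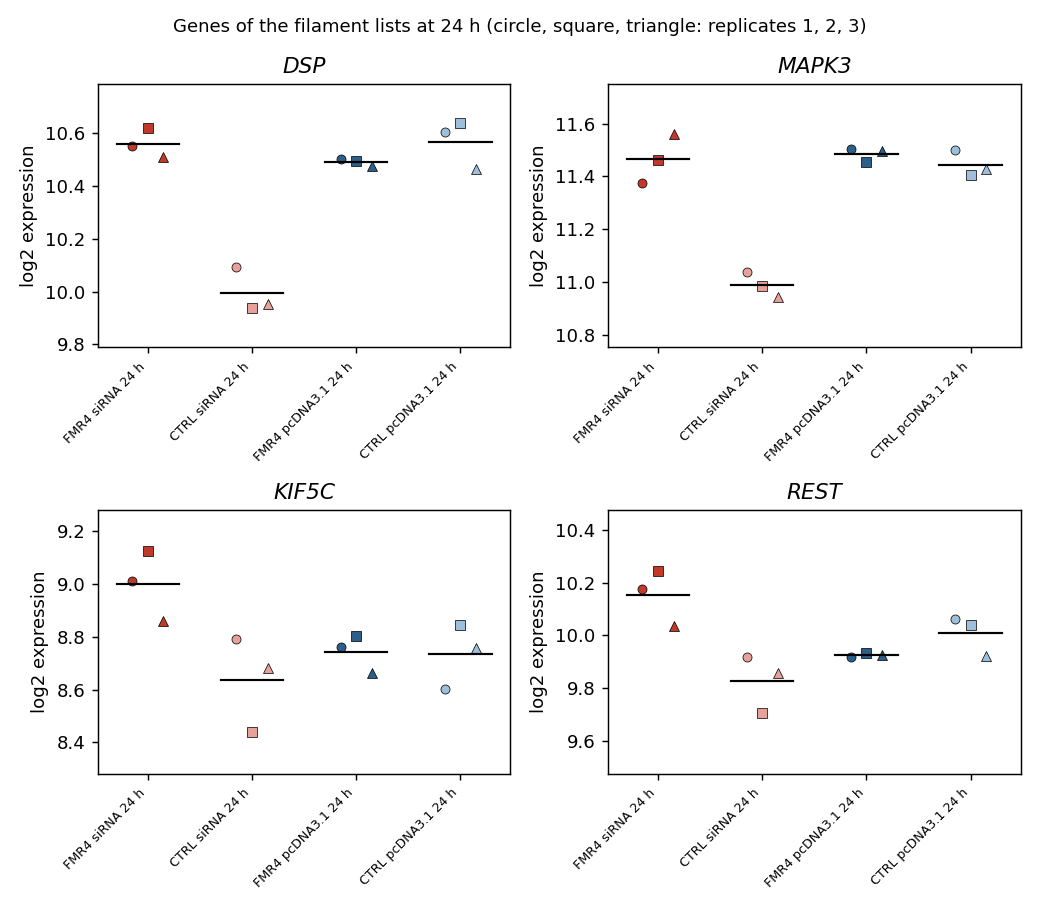
Log2 expression of DSP, MAPK3, KIF5C and REST on the 12 arrays at 24 h, by treatment; symbols are single arrays, horizontal bars are means of 3, and every panel spans the same number of log2 units. In all 4 panels the 3 FMR4 siRNA arrays lie above the 3 CTRL siRNA arrays, and for DSP and MAPK3 the CTRL siRNA arrays are the lowest of the 12.

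The genes whose 8 condition means most resembled those of the called members are given as a description, from 6155 genes whose means spanned at least 0.3. For NEFM they were PIGW, an enzyme of membrane anchor synthesis, SNORD43, a small nucleolar RNA, and POLR1A, the largest subunit of RNA polymerase I (Pearson r over 8 means 0.98 for each). Their own differences between FMR4 siRNA and CTRL siRNA at 24 h were 0.44, 0.19 and 0.26. For NEFL they were RAB12, a small GTPase of membrane traffic, MFSD2A, a lipid transporter, and LONRF2 (r = 0.996, 0.993 and 0.988), and for INA they were FHIT, a nucleotide hydrolase, PCDH10, a cell adhesion protocadherin, and SLCO2A1, a prostaglandin transporter (r = 0.999, 0.996 and 0.994). Each mean is of 3 arrays of the same line, and with so many genes searched high values of r are found readily. Among the bright members, r was 0.67 for NEFL and NEFM, 0.80 for NEFL and INA and 0.16 for NEFM and INA. With VIM, over the same 8 means, it was 0.30 for NEFL, -0.30 for NEFM and 0.76 for INA.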

How the data were processed

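The authors hybridised RNA of the transfected cells to Affymetrix arrays (Human Gene 1.0 ST per the labels, 2.0 ST in the study's methods). They deposited log2 expression values after background subtraction and GCRMA normalisation. The sources used here record 3 technical replicates as pooled, so what a single array stands for is uncertain. The labels do not say whether replicate arrays came from separate cultures, so p-values measure the spread between these arrays. GCRMA's version and the genome build are not given in the sources used here. The table held 33297 probe sets, of which 21214 carry a gene in the platform annotation; 27 old symbols were updated through RefSeq synonyms. Genes were represented by their brightest single-symbol probe set. Differences were tested with limma 3.58.1 in R 4.3.3 on all 24 arrays (16 residual degrees of freedom), two-sided, after a test on simulated data. No pseudocount or filter was applied. Array number limits precision. The 8 genes and all gene lists were chosen with earlier results of these data known, so their calls are no independent evidence. Named are all 8 genes, the up to 3 called genes of lowest adjusted p per list at 24 h after knockdown, and the 3 genes most like each called member; HSPB8, KRT8, EPPK1 and JUN were chosen after their values were seen. Alternatives changed the arrays fitted, the moderation, weights, filter, normalisation, probe sets tested and replicate block. Figures were drawn with matplotlib 3.10.9.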

Additional observations from a re-analysis of the deposited data

Results flagged for a closer look

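Differences between groups in the effect of knockdown drew attention to NEFM in both tests. Its knockdown effect was 0.72 larger at 24 h than at 6 h (SE 0.18, limma adjusted p = 0.0486). All 3 FMR4 siRNA arrays were above all 3 CTRL siRNA arrays at 24 h, and the arrays overlapped at 6 h. That call was lost when any of 8 of the 12 arrays was left out, with all probe sets tested and with median centring. Its knockdown effect at 24 h was 0.81 larger than its overexpression effect (SE 0.18, limma adjusted p = 0.0137), and the plasmid arrays overlapped. This call was lost without CTRL siRNA replicate 2 or FMR4 pcDNA3.1 replicate 3 at 24 h. Both values contain the low CTRL siRNA arrays of 24 h, and why those arrays were low was not tested.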

How the results depend on the processing

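NEFM was called higher with FMR4 siRNA than with CTRL siRNA at 24 h in every setting run (0.75 to 0.76, adjusted p 1.01e-05 to 0.00149). Its falls between 6 and 24 h with CTRL siRNA, FMR4 pcDNA3.1 and CTRL pcDNA3.1 also kept their calls in all settings and with each array left out. The spans of the 8 condition means moved by less than each gene's largest condition SD under quantile normalisation and median centring. The PRPH span went from 0.118 to between 0.0726 and 0.0754.

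The number of the 8 genes called changed as follows. For the NEFM knockdown effect at 24 h minus at 6 h it was 0 with all probe sets tested (adjusted p = 0.11) and 0 with arrays centred on the median (0.0501), and 0 to 1 with 1 array left out. For CTRL pcDNA3.1 minus CTRL siRNA at 6 h it was 0 in a fit to the 12 arrays of that time, 3 with array weights, 3 with quantile normalisation, 2 with median centring, 2 without dim probe sets, 2 with the trend and robust options and 0 to 1 with 1 array left out. For 24 h minus 6 h with FMR4 siRNA it was 0 in a fit to the 6 arrays compared, 1 without both siRNA arrays numbered 3 at 6 h, and 1 to 2 with 1 array left out. With FMR4 pcDNA3.1 it was 3 with array weights, and with CTRL siRNA it was 4 with array weights, against 3. For FMR4 siRNA minus CTRL siRNA at 6 h it was 1 without both arrays numbered 3, and 0 to 1 with 1 array left out. For the knockdown minus the overexpression effect it was 0 to 1 at 24 h and 0 to 1 at 6 h with 1 array left out. For CTRL siRNA minus both plasmid groups at 24 h it was 2, and for FMR4 siRNA minus both it was 1, with array weights, with median centring and without both arrays numbered 3. The count for FMR4 siRNA minus both was 1 also with the trend and robust options. For the time change with CTRL siRNA minus that with CTRL pcDNA3.1 it was 1 with array weights and 1 without both arrays numbered 3. The cause was not tested.

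Differences that turned sign were all near 0 and uncalled. NEFM after overexpression at 6 h was 0.00028 with quantile normalisation (-0.12 to 0.062 with 1 array left out), and at 24 h -0.11 to 0.053. NEFM after knockdown at 6 h was -0.052 with array weights and -0.043 without both arrays numbered 3 (-0.089 to 0.21 with 1 array left out), and minus the overexpression effect it was -0.040 without them (-0.085 to 0.21). NEFH was -0.079 to 0.11 after knockdown at 24 h and -0.097 to 0.025 after overexpression at 6 h. Of the 21 other such differences, 9 of 240 values in other settings and 31 of 132 with 1 array left out turned sign, and none was called.

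Whether the replicate numbers mark shared batches was not tested. Of 12 correlations between deviations of same-numbered arrays, 5 were over 0.1 (range -0.38 to 0.47). The highest was that of the siRNA arrays numbered 3 at 6 h, and in 0 of the comparisons were all 3 over 0.1. With the replicate number as a block over all arrays, NEFM at 6 h was called between CTRL pcDNA3.1 and CTRL siRNA (0.45, adjusted p = 0.0185), which gave 2 genes of the 8 there, and no other count of the 8 moved. After knockdown at 24 h this block ended the calls of CASP6 (adjusted p = 0.0611) and ZEB1 (0.0695), and a block within a time and arm those of LMNB2 (0.0896) and ZEB1 (0.13). With all probe sets tested CASP6 (0.084) and ZEB1 (0.08) were not called, nor was ZEB1 with quantile normalisation (0.0619) or median centring (0.0505). Genes called after knockdown at 24 h numbered 1083, against 1655 with array weights and 653 without CTRL siRNA replicate 2. Between the controls at 6 h they numbered 608, against 8 in the 12-array fit and 3262 with array weights. Median centring turned the higher and lower calls between the controls at 24 h to 324 and 626, against 533 and 293.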
